A study of Heliothis virescens with 2 samples.

Results

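The carboxypeptidase transcripts of the larval gut of *Heliothis virescens*, the tobacco budworm, were represented by 2 transcript tags, Tag_492 and Tag_590, among 35963 different tags counted in the study. A tag was taken as a member when the protein name given to it in the study's lists of changed tags contained the word carboxypeptidase. Tag_492 carried the name carboxypeptidase A, after a protein of *Helicoverpa armigera*, and Tag_590 the name carboxypeptidase B-like, after a protein of *Papilio polytes*. Those lists held only tags that had already been called higher or lower in 1 library, so the members were selected on their counts and FC in these same libraries, which are described here without a test. Of 1855 list entries that could be joined to a counted tag, 383 had a protein name that could be read from the lists. Some names in the lists were not read. Carboxypeptidase transcripts among tags without a name were not analysed here.

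The study compared a strain resistant to Vip3A, an insecticidal protein of *Bacillus thuringiensis*, with its susceptible counterpart. Vip–Sel was the subpopulation of a field-derived population selected with Vip3Aa protoxin at the first instar, then kept without toxin for several generations before sampling. Vip–Unsel was the subpopulation of the same origin that was never selected. From each strain, the guts of 25 larvae of instar 3, reared on artificial diet without toxin, were pooled as 5 RNA preparations of 5 guts and made into 1 HT-SuperSAGE library, a method that counts a short tag beside an NlaIII site of each transcript. The labels name the tissue as midgut, while the dissection described is of the gut freed by cutting off the hind end of the body, so other gut regions and attached tissue were not excluded by it. With 1 library a strain there was no replicate, and every difference given here is between the libraries and not between the strains. In pooled gut RNA, fewer cells of a type and less RNA per cell cannot be told apart.

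Digestive carboxypeptidases are zinc-dependent exopeptidases that larval midgut cells secrete as inactive precursors, activated in the gut lumen by trypsin. They take single residues off the carboxyl end of the peptides that trypsins and chymotrypsins release. The A type prefers aromatic and aliphatic residues, whereas the B type prefers the basic residues lysine and arginine, which trypsin cleavage leaves at the end of peptides.

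The sequences of both members are given first because the comparison turns on exact tag sequences. Each tag had 26 bases and began with CATG, the NlaIII site. The last 2 bases, in capitals, lie where the sequencing adapter was joined after the EcoP15I cut, and tags that share the first 24 bases are treated here as possible forms of 1 transcript. Positions are counted from 1 at the 5′ end.
Tag_492: catgcaagctgctgccccattctcCT
Tag_590: catgtcggcgccgctatgggagctGC
Tag_492 held 15 and Tag_590 held 18 G or C bases. In the study's annotation Tag_492 lay in the orientation of its matched contig and Tag_590 in the opposite one. The strand of the contigs was not given in the sources used here, so whether Tag_590 is the sense strand of the carboxypeptidase B-like transcript was not tested. No genome of the species was used, and no position is given.

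The members differed in opposite directions. Tag_492, carboxypeptidase A, was counted 110 times in the Vip–Sel library and 2 times in the Vip–Unsel library. Scaled to library size, this was 10.4 counts per 100000 (exact 95% interval 8.56 to 12.6) in Vip–Sel, against 0.746 (0.0903 to 2.69) in Vip–Unsel. The intervals did not overlap, which is no test because the tag was chosen on these counts. The Vip–Unsel value stood on fewer counts than the 3 taken here as the floor of detection, which is 1.12 per 100000 in that library. The fold change (FC, Vip–Sel over Vip–Unsel) was 14.0, with an exact 95% interval of 3.78 to 117. All intervals cover counting error only, since PCR reads without molecular identifiers are not independent molecules.

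Tag_590, carboxypeptidase B-like, was counted 85 times in the Vip–Sel library and 128 times in the Vip–Unsel library. Because the Vip–Sel library was 3.94 times as deep, this was 8.05 counts per 100000 (6.43 to 9.95) in Vip–Sel, against 47.7 (39.8 to 56.7) in Vip–Unsel. These intervals did not overlap either, again no test for a tag chosen on its counts, and the FC was 0.169 (0.127 to 0.224). The order of the members by abundance was thus different in the libraries. In Vip–Sel their intervals overlapped, and Tag_492 ranked 519 and Tag_590 ranked 628 among all tags by count. In Vip–Unsel Tag_590 was at rank 186 and Tag_492 at rank 4244. Together the members reached 195 counts in Vip–Sel and 130 counts in Vip–Unsel, or 18.5 per 100000 against 48.5 per 100000, a ratio of 0.381 (0.304 to 0.479) that was set mostly by Tag_590. With the trimmed mean of M values (TMM) of edgeR as the library scaling, the same ratio was 0.808.

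**Figure D1:**
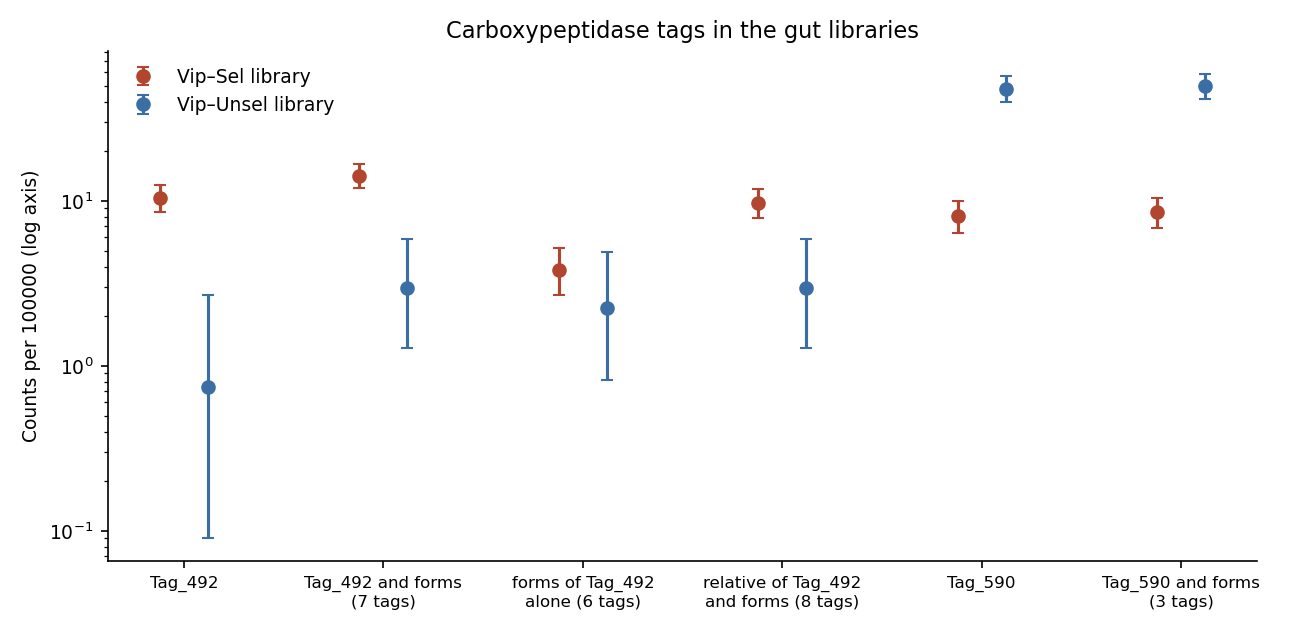
Counts per 100000 tags (log axis) of the carboxypeptidase tags and sums of their forms in the Vip–Sel (red, left) and Vip–Unsel (blue, right) libraries; points are 1 library each and bars are exact 95% intervals of counting error. Tag_492 was at 10.4 in Vip–Sel and 0.746 in Vip–Unsel, Tag_590 at 8.05 in Vip–Sel and 47.7 in Vip–Unsel.

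By the rule of the study, overexpressed (OE) tags had an FC of 2.5 or more and underexpressed (UE) tags one of 0.4 or less, each with 2 or more counts and an unadjusted Audic–Claverie probability under 0.05. Tag_492 was 1 OE tag and Tag_590 was 1 UE tag, as their place in the lists required. Of all 15467 tested tags 6.70% were called OE and 27.0% UE. These shares take in tags seen in a single library only, and they give more calls of either kind than the study reported. When testing was limited to the 5237 shared tags, the rule gave 420 OE calls (8.02%) and 1570 UE calls (30.0%), close to the study's own totals. Among the 1091 tags with at least 50 counts over both libraries, where both members lie, 36.7% were OE and 21.6% UE. Nothing is read from the members' calls against these shares, because the calls chose them. At the scaling to library totals, beside 2 counts in Vip–Unsel, 26 counts in Vip–Sel would have met the OE rule, and beside 85 counts in Vip–Sel, 54 counts in Vip–Unsel would have met the UE rule. With TMM scaling Tag_590 had an FC of 0.358, closer to the limit of 0.4. In size of FC, 158 of the 1091 tags (14.5%) were above Tag_492 and 115 (10.5%) were below Tag_590. The median log2 FC was -0.98 over all tested tags and 0.40 over those with at least 50 counts, against 3.80 for Tag_492 and -2.57 for Tag_590.

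**Figure D2:**
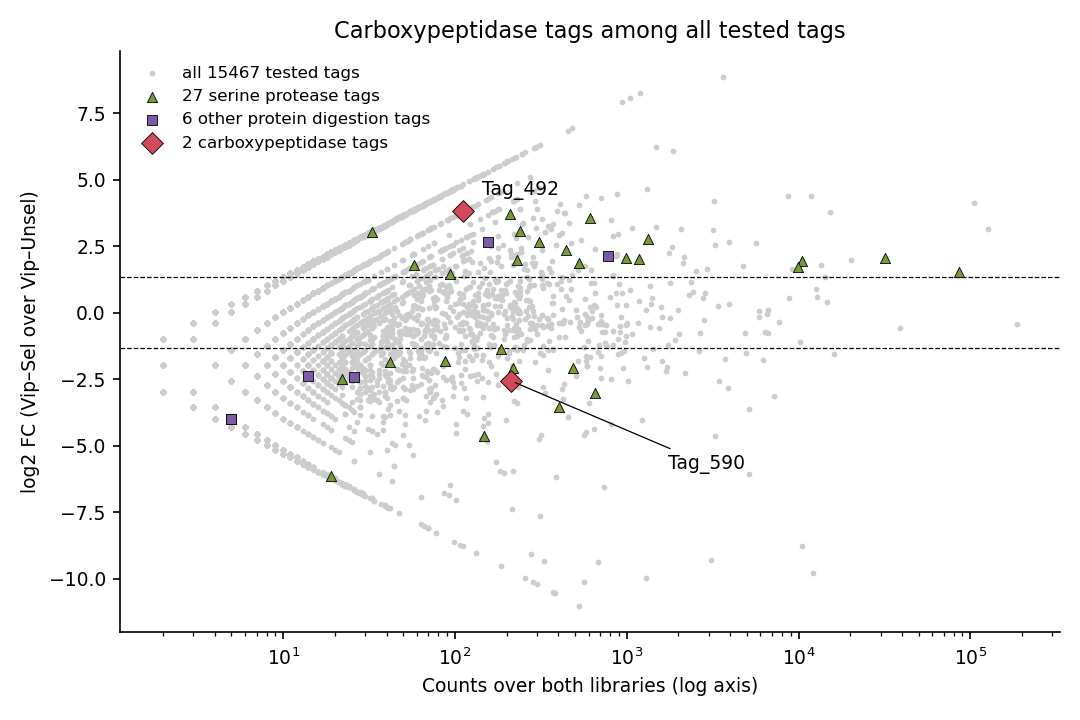
The log2 FC of each tested tag (grey, 15467 tags) against its counts over both libraries (log axis), with carboxypeptidase tags as diamonds, other protein digestion tags as squares and serine protease tags as triangles; dashed lines mark FC 2.5 and 0.4, and a count of 0 was replaced by 1. Tag_492 at 3.80 and Tag_590 at -2.57 lie outside the dashed lines on opposite sides.

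The fold change of Tag_492 depended on which tags were counted as carboxypeptidase A. The 7 tags with its first 24 bases summed to 150 counts in Vip–Sel and 8 counts in Vip–Unsel, and their ratio of 4.76 (2.36 to 11.2) was lower than the 14.0 of the tag alone. The other 6 tags of that set, without Tag_492, summed to 40 counts in Vip–Sel and 6 counts in Vip–Unsel, a ratio of 1.69 (0.713 to 4.89) whose interval included 1. The forms that carried most of these counts differed from Tag_492 at the last base.
T26C form: catgcaagctgctgccccattctccC
T26G form: catgcaagctgctgccccattctccG
T26A form: catgcaagctgctgccccattctccA
The T26C form had 18 counts in Vip–Sel and 1 count in Vip–Unsel. The T26G form had 12 counts in Vip–Sel and 4 counts in Vip–Unsel, more in Vip–Unsel than Tag_492 itself. The T26A form had 6 counts in Vip–Sel and was not counted in Vip–Unsel. The remaining forms at the last 2 bases held 4 counts in Vip–Sel and 1 count in Vip–Unsel.

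The share of the set held by Tag_492 differed between the libraries, in the direction that its selection on a low Vip–Unsel count favours. Tag_492 made up 73.3% (110 of 150 counts, exact 95% interval 65.5 to 80.2) of its Vip–Sel set, against 25.0% (2 of 8 counts, 3.19 to 65.1) of the Vip–Unsel one. The T26G form held 12 of those 150 Vip–Sel counts, against 4 of the 8 Vip–Unsel counts. The Vip–Unsel shares rest on 8 counts. Across 680 sets with at least 50 counts in Vip–Sel the most abundant tag held a median of 83.3% (quartiles 75.0 and 91.8), and 147 sets (21.6%) lay below Tag_492. No such comparison is given for the Vip–Unsel share, because the low count of Tag_492 there is part of what selected it. Over the 208 OE tags compared with their sets, the median log2 difference between tag and set was 0.07, against 1.55 for Tag_492. The value of Tag_492 holds the same 2 of 8 Vip–Unsel counts, so its place among the OE tags is not read. Gaps in either direction were seen in single called tags. Tag_310, serine protease 37, had an FC of 13.1 and a set ratio of 5.39. Tag_77, a serine protease, had an FC of 4.05 and a set ratio of 0.888, in a set that also holds the UE Tag_522. Tag_69, a chymotrypsin, had an FC of 6.73 and a larger set ratio of 19.9, in a set that also holds the more abundant OE Tag_32.

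Tag_590 was nearly free of such forms. Its set held 3 tags with 90 counts in Vip–Sel and 133 counts in Vip–Unsel, a ratio of 0.172 (0.130 to 0.226), against 0.169 for the tag alone. The member held 94.4% (87.5 to 98.2) of the set in Vip–Sel and 96.2% (91.4 to 98.8) in Vip–Unsel, and the Vip–Sel share was higher than in 88.2% of the 680 Vip–Sel sets.
C26T form: catgtcggcgccgctatgggagctGT
C26A form: catgtcggcgccgctatgggagctGA
The C26T form had 3 counts in Vip–Sel and 4 counts in Vip–Unsel, and the C26A form had 2 counts in Vip–Sel and 1 count in Vip–Unsel. These forms alone gave a ratio of 0.254 (0.0584 to 1.10), in the direction of Tag_590 with an interval that reached 1.

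**Figure D3:**
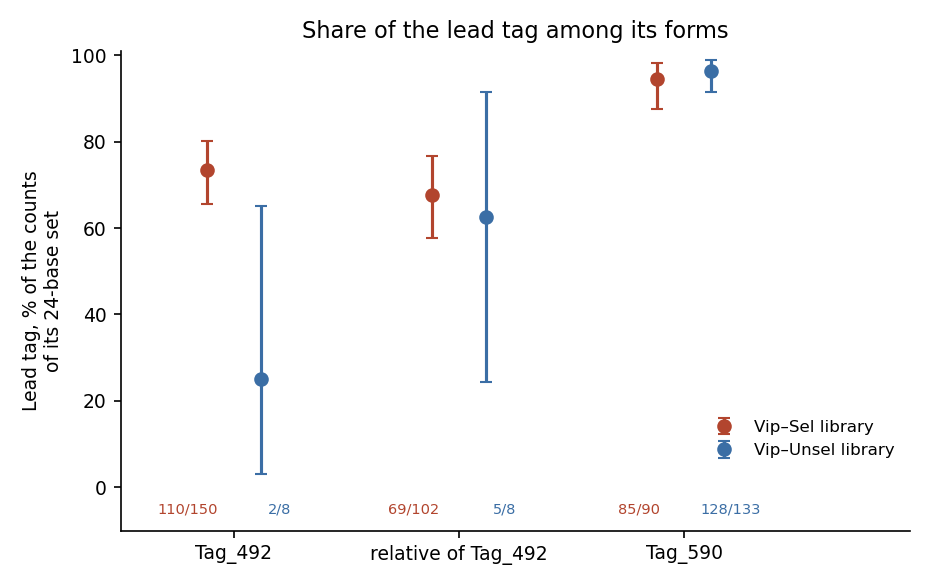
Share (%) of the counts of tags with the same first 24 bases that fell to Tag_492, to its relative and to Tag_590, each within its own set. Vip–Sel is red (left) and Vip–Unsel blue (right), with exact 95% intervals and the counts behind each share. In Vip–Unsel the T26G form had more counts than Tag_492. Tag_492 held 73.3% in Vip–Sel and 25.0% in Vip–Unsel, whereas Tag_590 held 94.4% in Vip–Sel and 96.2% in Vip–Unsel.

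Tags with 1 base changed within the first 24 bases were rare for both members. Around Tag_492 there were 6 such tags, with 3 counts in Vip–Sel and 3 counts in Vip–Unsel. The A7T, G11A and T23G changes were each counted once in Vip–Sel, and C16T was counted 3 times in Vip–Unsel, on 3 different tags, and 0 times in Vip–Sel. Around Tag_590 there were 7 such tags, with 2 counts in Vip–Sel and 5 counts in Vip–Unsel. None of these changes was counted in both libraries. Adding every tag 1 substitution away gave 152 counts in Vip–Sel and 9 counts in Vip–Unsel for Tag_492, a ratio of 4.29 (2.20 to 9.56). For Tag_590 it gave 92 counts in Vip–Sel and 137 counts in Vip–Unsel, a ratio of 0.171 (0.129 to 0.224).

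A further tag with many counts stood 3 substitutions away from Tag_492. It was found after the values had been seen, was listed by the study as Tag_862 without a protein name, and is called a relative only for its sequence. The bases that differ are in capitals.
Tag_492: catgcaAgctgcTgcCccattctcct
Tag_862: catgcaGgctgcAgcTccattctcct
Tag_862 had 69 counts in Vip–Sel and 5 counts in Vip–Unsel, an FC of 3.50 (1.43 to 11.1) that met the OE rule. Its set of 8 tags summed to 102 Vip–Sel counts, against 8 Vip–Unsel counts, a ratio of 3.24 (1.58 to 7.70). In that set the lead tag held 67.6% (57.7 to 76.6) of the Vip–Sel counts, against 62.5% (24.5 to 91.5) of the Vip–Unsel counts, and these intervals overlapped. The tags of Tag_492 and Tag_862 together gave 252 counts in Vip–Sel and 16 counts in Vip–Unsel, a log2 ratio of 2.00. Such neighbours were common, as 401 of the 1091 tags with at least 50 counts (36.8%) had another such tag 2 or 3 substitutions away. The base at position 16 of the C16T tags of Vip–Unsel is also that of Tag_862. Around Tag_590, no tag with 50 or more counts stood 2 or 3 substitutions away.

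The other tags named for protein digestion also differed in both directions. This list held 6 tags, the peptidases that are no serine proteases and the peptide transporter, and each had a name only because it had been called on these libraries. It had 2 OE and 4 UE tags, beside 6.70% OE and 27.0% UE of all tested tags, with a median log2 FC of -2.41. Aminopeptidase N, a brush border enzyme that takes residues off the amino end of peptides, was OE as Tag_403, with 149 counts in Vip–Sel and 6 counts in Vip–Unsel (FC 6.31, 2.83 to 17.5). Lysosomal aspartic protease, of the cathepsin D kind that works inside cells, was OE as Tag_106, with 735 counts in Vip–Sel and 43 counts in Vip–Unsel (FC 4.34, 3.19 to 6.05). For these tags the sums of forms gave ratios of 7.43 for Tag_403 and 4.31 for Tag_106.

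The UE tags of the list had few counts. Tag_1866, a putative aminopeptidase, had 11 counts in Vip–Sel and 15 counts in Vip–Unsel (FC 0.186, 0.0774 to 0.434). Tag_2443, an astacin, a zinc endopeptidase, had 6 counts in Vip–Sel and 8 counts in Vip–Unsel (FC 0.190, 0.0545 to 0.626), and it was not called with TMM scaling. Tag_4803, gamma-glutamyltranspeptidase, and Tag_4506, peptide transporter family 1, each had 1 count in Vip–Sel and 4 counts in Vip–Unsel (FC 0.0635, 0.00129 to 0.642). With its forms, Tag_4506 had a ratio of 0.0282. Tag_590 was thus the UE tag with the most counts among the carboxypeptidases and these 6 tags. The intervals of all 4 UE tags of the list included its FC.

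**Figure D4:**
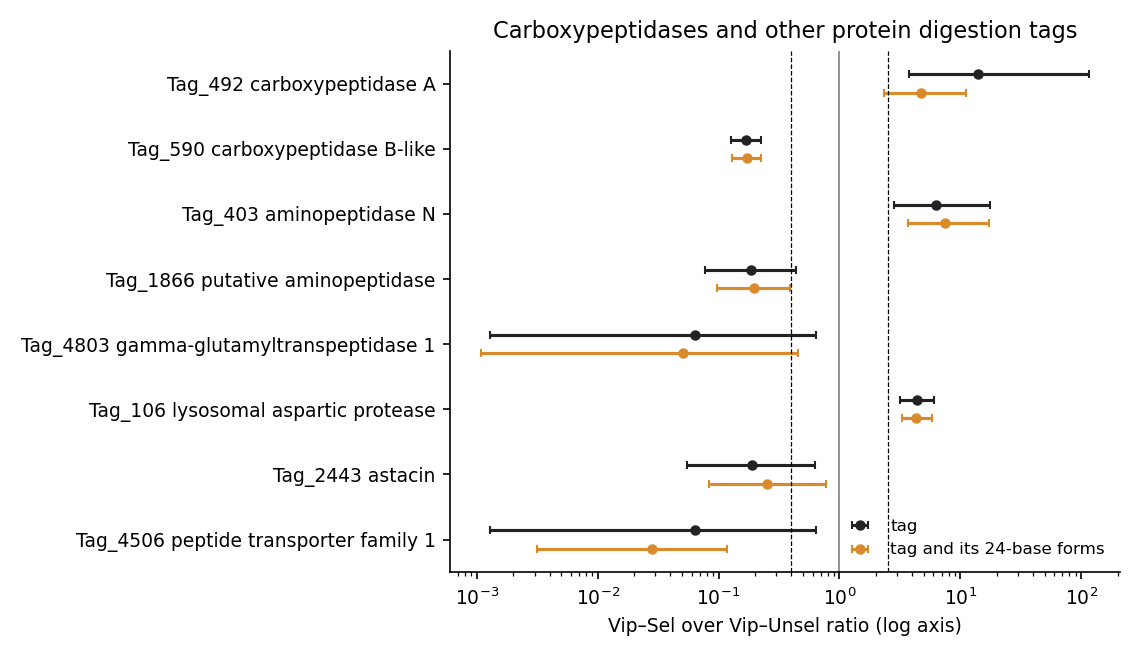
Ratio of Vip–Sel over Vip–Unsel (log axis) for the 2 carboxypeptidase tags and the 6 other protein digestion tags, for the tag alone (black) and for the sum of the tags with its first 24 bases (orange), with exact 95% intervals of counting error; dashed lines mark 2.5 and 0.4. The 2 estimates lie apart for Tag_492 (14.0 and 4.76) and together for Tag_590 (0.169 and 0.172).

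Within the tags called and named by the study, carboxypeptidase counts were a small part of the peptidase counts. The serine proteases named by the study, which make the peptides that carboxypeptidases trim, were 27 tags, of which 17 were OE and 10 UE, with a median log2 FC of 1.78. Each was listed because it had been called, so nothing is read from this split. Over all tested tags 6.70% were OE and 27.0% UE, and 36.7% and 21.6% among those with at least 50 counts. The serine protease tags took 12.8% of all Vip–Sel counts, against 4.41% of the Vip–Unsel counts. The 14 trypsin tags split into 10 OE and 4 UE, the 9 chymotrypsin tags into 4 OE and 5 UE. With TMM scaling the serine proteases had 17 OE and 5 UE tags, with 1 trypsin and 3 chymotrypsins among the UE tags. At that scaling 16.7% of all tested tags were OE and 20.9% UE. Within the 34 named peptidase tags, the members had 0.143% of the counts (195 of 136293, 0.124 to 0.165) in Vip–Sel and 1.08% (130 of 12044, 0.903 to 1.28) in the Vip–Unsel library. The serine protease tags with the most counts, also called on these libraries, weigh most in this share.

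Markers of other tissue differed between the libraries as well. They too were named only because they had been called, so nothing is read from their calls. Over all tested tags 6.70% were OE and 27.0% UE. The 4 muscle tags, for myosin heavy chain, myosin light chain and tropomyosin, were all UE, with 354 counts in Vip–Sel and 379 counts in Vip–Unsel, or 33.5 against 141 per 100000 (ratio 0.237, 0.205 to 0.275). With TMM scaling 2 of the 4 were UE, beside 20.9% of all tested tags. Of the 3 cuticle tags 1 was OE and 2 were UE, and they summed to 443 counts in Vip–Sel and 25 counts in Vip–Unsel (ratio 4.50, 3.01 to 7.03), of which Tag_163 gave 427 counts in Vip–Sel and 8 counts in Vip–Unsel. Their part in the lower Tag_590 and the higher Tag_492 of Vip–Sel was not tested.

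Among 149 tags with at least 50 counts and a protein name that could be read, those nearest in log2 FC were listed for each member, over 2 libraries. Nearest to Tag_492 were Tag_163, larval cuticle protein 1 (FC 13.6), Tag_268, a hypothetical protein (FC 14.9), and Tag_310, serine protease 37 (FC 13.1). Nearest to Tag_590 were Tag_66, aldehyde dehydrogenase X (FC 0.169), Tag_171, a hyperpolarization-activated cyclic nucleotide-gated channel (FC 0.170), and Tag_614, thiolase 4 (FC 0.165). With 2 libraries, nearness in FC is likeness of 1 ratio only.

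The libraries held 1056080 counts on 27986 tags in Vip–Sel and 268172 counts on 13214 tags in Vip–Unsel, with 5237 tags in both. The 10 most abundant tags took 53.4% of the Vip–Sel counts, against 41.8% of the Vip–Unsel counts. A count of 1 was worth 0.0947 per 100000 in Vip–Sel and 0.373 per 100000 in Vip–Unsel. TMM scaling moved every log2 ratio up by 1.09 and totals without the 10 most abundant tags moved it up by 0.32. Tag_492 then had a log2 FC of 4.89 with TMM and 4.12 without those tags, and Tag_590 had -1.48 and -2.25. The OE tags made up 19.9% of all calls, against 44.4% with TMM.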

How the data were processed

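The authors deposited 1 table per library with the raw count of each 26-base tag, extracted from Illumina Genome Analyzer II reads sorted by index with a Perl script, and nothing was normalized or replaced in them. Tags had no codes or names in these tables. The 2 members and the named tags were joined to them by exact counts and by sequence to the study's lists, whose supplementary text has reading errors. Where the counts did not match, as for the trypsin Tag_5, sequence and tag code were used. The members, lists and alternatives were chosen with earlier results of these data known. From the counts, FC was computed on counts scaled to a common total of 268000, with 1 in place of 0. The Audic–Claverie probability, one-sided and unadjusted, gave the OE and UE calls (FC of at least 2.5 or at most 0.4, probability under 0.05, at least 2 counts). For OE it included the observed Vip–Unsel count, and for UE it covered only larger ones, which makes UE calls easier at low counts. Ratios and shares have exact (Clopper-Pearson) 95% intervals. The text names both members, their most abundant forms, the other protein digestion tags, markers, and the 3 named tags nearest in FC to each member. Alternatives were TMM scaling, totals without the 10 most abundant tags, centring on tags of equal GC, merging of forms, Fisher's exact test, Benjamini-Hochberg adjustment and other count minimums. The calling code was checked on simulated data. No reference genome or transcriptome was used, and amino acid sequences were not used here. The versions were edgeR 4.0.16 in R 4.3.3, and scipy 1.17.1, numpy 2.4.6 and matplotlib 3.10.9 in Python 3.11.15.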

Additional observations from a re-analysis of the deposited data

How the results depend on the processing

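No paired analysis was possible because there was 1 library per strain, and no replicate could be left out. Each member kept its call in 6 of 6 alternatives, with log2 FC between 2.10 and 4.89 for Tag_492 and between -2.55 and -1.48 for Tag_590. All 6 used the counts that chose the members, so a kept call is no test. Beyond counting error, Tag_590 moved to -1.48 with TMM and -1.59 after centring on tags of equal GC, and its sum of forms to -1.46 and -1.56, by construction of these scalings. The sum of forms without the tag itself, chosen after seeing the data, was 0.76 for Tag_492 and -1.98 for Tag_590. At these values the forms of Tag_492 did not meet the OE rule and those of Tag_590 met the UE rule. The cause was not tested. Over all tested tags, OE calls were 1037, with 2588 under TMM, 613 with 3 in place of 0 and 420 among tags in both libraries. UE calls were 4169, with 1570 among tags in both libraries, 992 at a minimum of 10 counts, 9547 with no minimum and 2770 after merging tags 1 substitution apart. Fewer or more tags were tested at these settings. Adding the tags of Tag_862, also chosen after seeing the data, gave a log2 ratio of 2.00 for Tag_492. Depth limits Tag_492, whose ratio rests on 2 counts in Vip–Unsel.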
